A study of Mus musculus with 6 samples.

Results

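The genes described here are 165 of the 637 genes in the authors' deposited table, namely those that were lower in ischemia than in sham, carried a gene symbol and remained after several families were set aside. They were selected on the authors' group means, an ischemia mean below the sham mean, so their falls are given as a description with no test. Of the 222 lower genes, 13 had no symbol, 32 were zinc finger genes named Zfp plus a digit, 4 had names that start with Slc or Kcn and 8 were named exclusions (Lct, Dsp, Grm2, Gpr17, Nptx1, Apaf1, Il1r1 and Foxl2os), which left the 165. RNA was sequenced from the hippocampus of wild type C57BL/6 mice aged 56 days, with 3 samples after focal middle cerebral artery occlusion (MCAO) and 3 after a sham operation. MCAO models stroke by closing the artery that feeds much of the lateral forebrain. Both groups carry 2 h in their titles, and whether reperfusion or a waiting time followed is not said. Nor is it said whether the 3 samples of a group were separate animals, so p-values may reflect technical spread alone. The column headings M2 and S2 were taken to stand for MCAO and sham because of their first letters, and every direction below rests on that reading.

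Each gene has 1 mean normalised read count per group, beside the authors' fold change and p-values. The table lists only genes that the authors called at an adjusted p-value of 0.05, so a gene that does not appear has no known level here. The adjusted p-values imply that 28319 genes were tested, of which 0.784% were called lower and 2.25% were called in either direction. The 165 genes therefore carry an adjusted p-value of 0.0499 or less by the way the table was made, and nothing is read from that. An mRNA level falls when less is transcribed or when more is degraded, and in a piece of tissue it also falls when the cells that hold it become fewer. In these bulk samples fewer cells of a type and less RNA per cell cannot be told apart.

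The falls were modest for abundant genes and larger for scarce ones. Over the 165 genes the median fall was 1.57-fold per the authors' deposited table, with a range from 1.35-fold for the protocadherin gene Pcdh1 to 5.90-fold for the prostaglandin F receptor gene Ptgfr. A fall of 2-fold or more was listed for 29 of them, among 48 such lower genes in the whole table (0.169% of the tested genes). An adjusted p-value under 0.01 was listed for 77 of them, among 98 such lower genes in the whole table (0.346% of the tested genes). Among all 222 lower genes the median fall was 1.60-fold, and among the 32 lower Zfp genes it was 1.67-fold, per the authors' deposited table. The median log2 fold change of the 415 higher genes was 1.07, against -0.65 for the 165 lower genes, per the authors' deposited table. The genes closest to no change were Pcdh1 at -0.44, the receptor phosphatase gene Ptprj at -0.45 and Tbc1d14 at -0.45 on the log2 scale, and the closest genes on the other side were Cnp at 0.42 and Cldn11 at 0.43, per the authors' deposited table.

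The size of the fall followed abundance. The 8 genes with a sham mean under 100 normalised reads fell by 2.38-fold to 5.90-fold, with a median of 3.52-fold, per the authors' deposited table. The 56 genes with sham means from 1000 to 3000 fell by 1.36-fold to 1.99-fold, and the 37 genes from 3000 upward by 1.35-fold to 1.83-fold, with a median of 1.45-fold, per the authors' deposited table. Within the last class, the largest fall was that of Gse1, a coiled-coil protein of corepressor complexes, from 3829 to 2087 normalised reads per the authors' deposited table. A scarce gene needs a larger fall to be called, so the selection bears on this pattern. None of the 93 genes with a sham mean above 1000 fell by 2-fold or more per the authors' deposited table, and the closest was Amer3, a membrane recruiter of the Wnt pathway protein APC, at 1.99-fold.

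**Figure D1:**
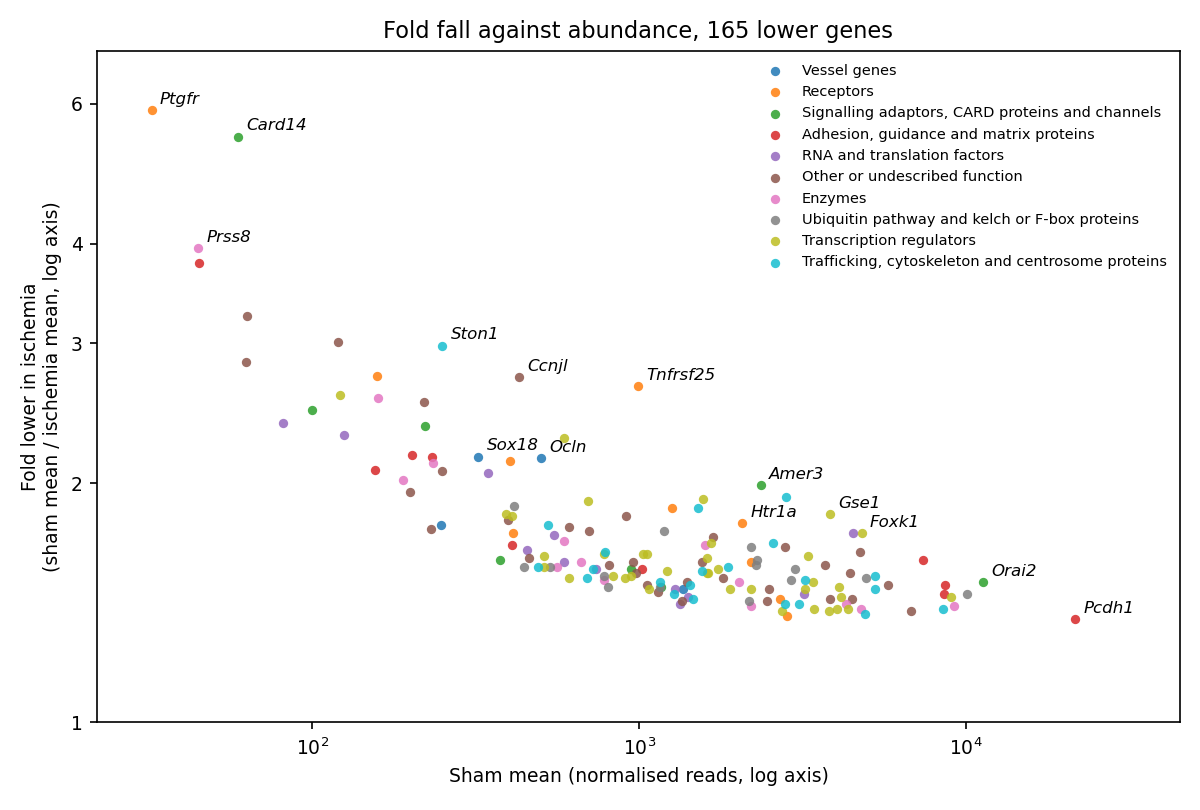
Each point is 1 of the 165 lower genes, placed by its sham mean in normalised reads (log axis) and by how many fold lower its ischemia mean was (log axis), coloured by function group. The 6 falls above 3-fold occur at sham means of 119.7 normalised reads or less, where Ptgfr (5.90-fold) and Card14 (5.46-fold) stand highest.

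The sequences in front of 6 of these genes are shown first, so that the letters can be compared with the promoter counts given later. That all 6 fell is set by the selection. They are the 4 genes with the smallest adjusted p-values, the tight junction gene Ocln and the serotonin receptor gene Htr1a. Each line is the 250 bases before the annotated start from RefSeq (GRCm38.p6), 5′ to 3′ on the strand of the gene. Capitals mark the GC box GGGCGG on either strand, the site that Sp1-family factors bind.
Amer3, chr1:34579443-34579692, plus strand: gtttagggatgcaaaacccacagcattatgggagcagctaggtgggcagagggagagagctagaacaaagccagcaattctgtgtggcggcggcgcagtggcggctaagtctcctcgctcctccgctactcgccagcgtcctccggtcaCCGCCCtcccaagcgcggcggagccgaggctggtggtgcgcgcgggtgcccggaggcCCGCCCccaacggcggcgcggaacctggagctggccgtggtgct
Ccnjl, chr11:43528499-43528748, plus strand: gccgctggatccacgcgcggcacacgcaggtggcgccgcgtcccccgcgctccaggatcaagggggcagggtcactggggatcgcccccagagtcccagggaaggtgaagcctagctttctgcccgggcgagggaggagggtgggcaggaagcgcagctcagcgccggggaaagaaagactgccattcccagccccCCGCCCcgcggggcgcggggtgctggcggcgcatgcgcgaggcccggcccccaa
Tnfrsf25, chr4:152115684-152115933, plus strand: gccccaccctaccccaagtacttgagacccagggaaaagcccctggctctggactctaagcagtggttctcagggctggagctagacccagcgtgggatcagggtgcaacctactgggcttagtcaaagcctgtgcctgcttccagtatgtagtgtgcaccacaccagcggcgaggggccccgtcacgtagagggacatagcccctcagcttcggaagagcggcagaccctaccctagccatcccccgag
Ston1, chr17:88626305-88626554, plus strand: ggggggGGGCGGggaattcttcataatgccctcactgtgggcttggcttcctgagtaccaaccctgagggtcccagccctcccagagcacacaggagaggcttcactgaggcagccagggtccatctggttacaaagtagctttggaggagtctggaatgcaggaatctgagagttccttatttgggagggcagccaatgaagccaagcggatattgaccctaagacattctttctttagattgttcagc
Ocln, chr13:100552719-100552968, minus strand: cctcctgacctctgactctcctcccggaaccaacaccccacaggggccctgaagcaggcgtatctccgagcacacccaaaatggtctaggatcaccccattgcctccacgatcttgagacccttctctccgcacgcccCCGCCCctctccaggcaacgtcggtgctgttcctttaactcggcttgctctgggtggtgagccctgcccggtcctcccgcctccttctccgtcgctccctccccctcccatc
Htr1a, chr13:105443443-105443692, plus strand: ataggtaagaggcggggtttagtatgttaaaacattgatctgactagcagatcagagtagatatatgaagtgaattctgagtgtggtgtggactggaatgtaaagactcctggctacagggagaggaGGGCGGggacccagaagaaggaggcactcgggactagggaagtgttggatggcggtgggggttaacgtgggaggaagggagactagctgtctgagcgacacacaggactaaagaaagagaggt
Amer3 holds 2 GC boxes in this window, Ccnjl, Ston1, Ocln and Htr1a hold 1 each, and Tnfrsf25 holds 0. The windows differ in CpG content, from an observed to expected ratio of 0.113 in Ston1 to 0.835 in Amer3.

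Values for single libraries could be separated for scarce genes. A group mean is a sum of whole read counts, each divided by its library's size factor, and for means up to 450 the printed digits often allow only 1 set of whole counts. This gave reads in all 6 libraries for 33 of the 165 genes, with sham means from 32.3 to 429.9 normalised reads. The libraries are lettered A to C within each group by falling size factor, and they cannot be matched to the replicate numbers of the samples. In 33 of the 33 genes the highest ischemia library lay below the lowest sham library. These genes were selected for being lower, so this separation is a description. The share of all tested genes without overlap is unknown, since uncalled genes are not listed. The share called lower, 0.784%, is a different measure. The lowest sham library exceeded the highest ischemia library by 1.22-fold for the innate immune regulator gene Nlrx1 and by 2.49-fold for the endocytic adaptor gene Ston1, with a median of 1.50-fold. In these 33 scarce genes, chosen for a low ischemia mean, ischemia libraries varied more among themselves than sham libraries. Their highest value was a median of 1.89 times their lowest, against 1.22 times in sham. The spread was wider in ischemia for 27 of the 33 genes. It was not examined in the higher genes, so it does not describe the libraries as a whole. The ischemia values also rest on fewer reads, with medians of 134, 69.0 and 68.0 reads per gene in libraries A to C against 223, 245 and 182 in sham. Ischemia library A was the highest of its group for 20 of the 33 genes and library B the lowest for 21. Each library was left out in turn, and the values that moved are given with their genes.

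**Figure D2:**
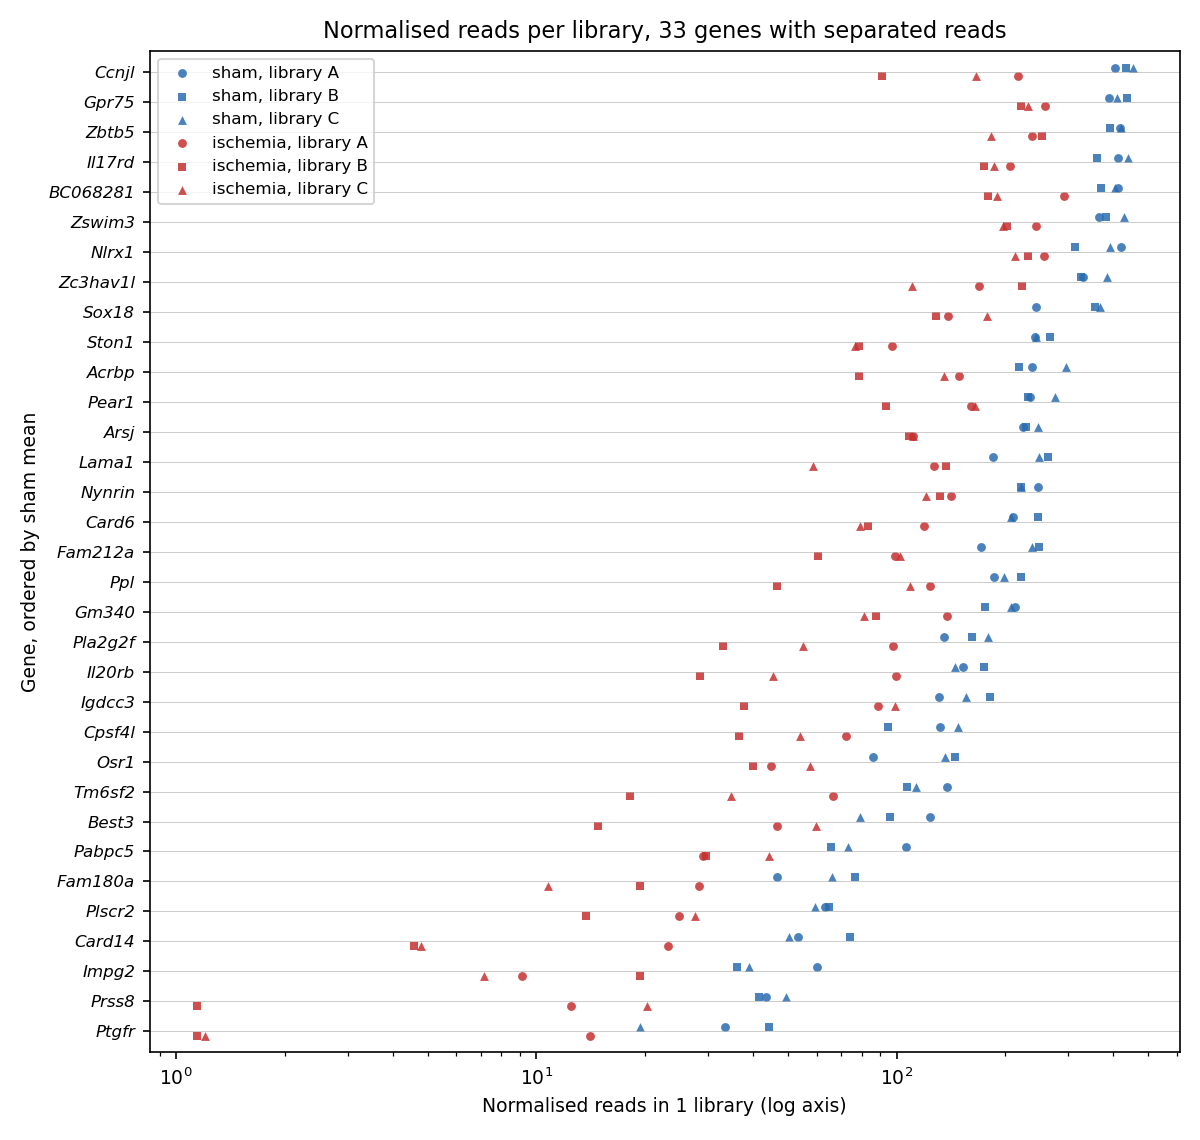
Normalised reads in each library (log axis) for the 33 genes whose reads could be separated, with sham libraries in blue, ischemia libraries in red and the library letter as the marker shape. Red points lie left of blue points in each of the 33 rows, and the widest red spreads are those of Prss8 (17.8-fold) and Ptgfr (12.4-fold).

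Receptors formed a group of 10 genes, with a median fall of 1.82-fold per the authors' deposited table. Ptgfr, the G protein-coupled receptor for prostaglandin F2 alpha, was at 14.1, 1.14 and 1.20 normalised reads in ischemia libraries A, B and C and at 33.3, 44.3 and 19.4 in sham libraries A, B and C. These values rest on 17, 1 and 1 reads in ischemia and 40, 49 and 17 in sham, so ischemia library A carries most of the remaining signal and the groups do not overlap. The authors' deposited table lists it at 5.90-fold lower (adjusted p = 0.0458), and leaving out ischemia library A moved its log2 fold change from -2.56 to -4.79, while leaving out library B moved it to -2.08. Of 12 prostanoid and eicosanoid receptor genes, Ptgfr was the 1 listed as lower and 0 were listed as higher, where 0.784% of the tested genes were called lower and 2.25% in either direction.

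Tnfrsf25, a death receptor of the tumour necrosis factor family, went from a mean of 993 in sham to 374 in ischemia per the authors' deposited table (adjusted p = 1.93e-07). Il20rb, a subunit of the receptors for interleukin 20 family cytokines, was at 153, 175 and 145 normalised reads in sham libraries A to C and at 99.6, 28.5 and 45.4 in ischemia libraries A to C. Its ischemia value was highest in library A, below each sham library, and its log2 fold change of -1.45 per the authors' deposited table moved to -2.10 without that library. Il17rd, an interleukin 17 receptor family member that also restrains fibroblast growth factor signalling, was even across libraries, at 412, 359.5 and 439 in sham and 207, 175 and 186 in ischemia (2.13-fold lower, adjusted p = 4.86e-05, per the authors' deposited table). For Il17rd the libraries of a group differed by at most 1.22-fold, and the nearest libraries of the groups by 1.74-fold. The gene was selected for being lower, so this gap is a description and no test.

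The neuromodulator receptor genes Htr1a and Oprl1 fell by less than these cytokine receptor genes and were more abundant. Htr1a, the serotonin 1A receptor of hippocampal pyramidal neurons, was at 2069 normalised reads in sham and 1161 in ischemia per the authors' deposited table (1.78-fold, adjusted p = 2.37e-04). Oprl1, the nociceptin receptor, went from 2193 to 1375 (1.59-fold, adjusted p = 0.00115) per the authors' deposited table. Gpr75 was at 388, 435 and 409 in sham libraries A to C and at 259, 221 and 232 in ischemia libraries A to C. These 2 sets of Gpr75 values are each tight, within 1.12-fold and 1.17-fold, and do not overlap. Rtn4r, the Nogo receptor that restrains axon growth, and Ptprj, a receptor tyrosine phosphatase, fell least in the group, by 1.43-fold and 1.36-fold per the authors' deposited table.

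Vessel genes numbered 4. Sox18, a transcription factor of endothelial cells, was at 243, 356 and 366 normalised reads in sham libraries A to C and at 139, 129 and 178 in ischemia libraries A to C. The lowest sham library stood 1.37-fold above the highest ischemia library, about the spread within either group (1.50-fold in sham and 1.38-fold in ischemia). Ocln, which encodes the tight junction protein occludin, went from 502 to 234 normalised reads (2.15-fold, adjusted p = 1.97e-04) per the authors' deposited table. Pear1, a platelet and endothelial receptor, was at 234, 231 and 276 in sham and 161, 93.4 and 165 in ischemia libraries A to C, with library B the low one. Vash1, which encodes the angiogenesis inhibitor vasohibin 1, fell 1.47-fold from 1358 normalised reads per the authors' deposited table. Of 22 vessel transcription factors and receptors, Sox18 was lower and Klf4 higher, and of 20 endothelial markers, Ocln was lower and 0 were higher. Of 12 pericyte and smooth muscle markers 0 were listed. Against the 2.25% of tested genes called in either direction, lists of this size are too short for these counts to say more. Oprl1 lies within 50 kb of Sox18 on the opposite strand in the mouse reference.

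Transcription regulators other than Zfp genes were the largest described group, with 37 genes, a median fall of 1.54-fold and 25 sham means above 1000 normalised reads per the authors' deposited table. Cbfa2t3, a corepressor of the ETO family, went from 1562 to 816 (1.91-fold, adjusted p = 7.12e-07) and Gse1 fell 1.83-fold (adjusted p = 6.85e-07) per the authors' deposited table. Forkhead factors contributed 3 genes: Foxk1 fell 1.73-fold (adjusted p = 1.02e-05), Foxo6 1.68-fold (adjusted p = 1.45e-04) and Foxn2 1.52-fold (adjusted p = 0.0180) per the authors' deposited table. Cecr2, a bromodomain subunit of a chromatin remodeller, went from 591 to 259.6 normalised reads (2.28-fold) per the authors' deposited table, and the SWI/SNF subunit gene Smarcd2 fell 1.63-fold. Ep300, the histone acetyltransferase p300, went from 4089 to 2762 (1.48-fold, adjusted p = 0.00480) per the authors' deposited table. Hexim1, which holds the elongation kinase P-TEFb inactive, fell 1.39-fold (adjusted p = 0.0403) per the authors' deposited table.

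Neuronal and developmental factors were in the same group. Neurod2, a basic helix-loop-helix factor of excitatory neurons, was at 9000.1 normalised reads in sham and 6264 in ischemia (1.44-fold), and its relative Neurod1 went from 831 to 542 (1.53-fold), per the authors' deposited table. Osr1, an odd-skipped zinc finger factor, was at 85.8, 145 and 136 in sham libraries A to C and at 44.8, 39.9 and 57.4 in ischemia libraries A to C. Sham library A was the low one of its group for Osr1, and the groups do not overlap. Zbtb5, a BTB zinc finger protein, was at 416, 390.2 and 419.8 in sham and 238, 253 and 183 in ischemia libraries A to C, so that sham varied by 1.08-fold and ischemia by 1.38-fold. The SWIM zinc finger genes Zswim1, Zswim3 and Zswim5 fell by 1.53-fold, 1.83-fold and 1.63-fold per the authors' deposited table, and Zswim1 and Zswim3 lie within 50 kb of each other on 1 strand. Of 27 other chromatin and corepressor genes, 0 were listed in either direction, where 2.25% of the tested genes were called. This list was written with earlier results known and holds none of the genes named above. Its count of 0 therefore says nothing about them.

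Enzymes numbered 14, with a median fall of 1.58-fold per the authors' deposited table. Prss8, the membrane serine protease prostasin, was at 43.3, 41.6 and 49.2 normalised reads in sham libraries A to C and at 12.5, 1.14 and 20.3 in ischemia libraries A to C. Ischemia library B held 1 read, and the log2 fold change of -1.98 per the authors' deposited table moved to -1.45 without it and to -2.72 without ischemia library C. Pla2g2f, a secreted phospholipase A2, went from 159 to 62.0 normalised reads per the authors' deposited table. Arsj, an arylsulfatase, was even within each group, at 225, 229 and 247 in sham and 111, 108 and 111 in ischemia (adjusted p = 0.00158 per the authors' deposited table).

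Napepld, which releases the endocannabinoid anandamide and related ethanolamides, went from 1585 to 947 normalised reads (1.67-fold, adjusted p = 3.30e-04) per the authors' deposited table. Dagla, a diacylglycerol lipase that makes another endocannabinoid, went from 9176 to 6554 (1.40-fold, adjusted p = 0.0203) per the authors' deposited table. The sulfotransferase genes Chst12, Gal3st3 and Chst15 fell by 1.51-fold, 1.50-fold and 1.40-fold per the authors' deposited table. Of 23 glycosyltransferase and sulfotransferase genes on a list, Chst15 was lower, 0 were higher and 22 are not listed. Over all tested genes, 0.784% were called lower and 2.25% in either direction. Chst12 and Gal3st3 are not on that list, so its count does not cover them. The methionine synthase reductase gene Mtrr fell 1.69-fold and the replication helicase gene Mcm6 1.59-fold per the authors' deposited table.

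Genes of the ubiquitin pathway and of kelch, F-box and KCTD proteins, many of which choose substrates for ubiquitin ligases, numbered 15. Their falls were narrow in range, from 1.42-fold to 1.87-fold, with a median of 1.56-fold, per the authors' deposited table. Klhl42 fell 1.74-fold (adjusted p = 8.26e-05), the ligase gene Neurl1b, which acts on Notch ligands, 1.66-fold (adjusted p = 2.26e-04) and Klhl34 1.58-fold (adjusted p = 3.30e-04) per the authors' deposited table. The deubiquitinase gene Otub2 fell 1.60-fold and Senp8, which encodes a NEDD8 protease, 1.87-fold per the authors' deposited table. Kbtbd11 was the most abundant of them, at 10039.9 normalised reads in sham and 6937 in ischemia per the authors' deposited table.

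Trafficking, cytoskeleton and centrosome genes numbered 22. Ston1, the adaptor stonin 1 of clathrin-mediated endocytosis, was at 242, 266 and 244 normalised reads in sham libraries A to C and at 97.1, 78.6 and 76.5 in ischemia libraries A to C. Both groups were tight, within 1.10-fold and 1.27-fold. Their nearest libraries stood 2.49-fold apart, the widest gap of the 33 genes, which were all selected for being lower. In the authors' deposited table Kif26b, a kinesin family gene, fell 1.86-fold (adjusted p = 2.86e-06) and the small GTPase gene Rasl10a 1.92-fold (adjusted p = 0.00176). The cilium gene Ttc26 fell by 1.77-fold per the authors' deposited table, and the centrosome or centriole genes Cep350, Cep97 and C2cd3 by 1.51-fold, 1.50-fold and 1.49-fold. Doc2b, a calcium sensor of vesicle release, fell 1.53-fold from 5273 normalised reads per the authors' deposited table.

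Adhesion, guidance and matrix genes numbered 10, from the scarce Impg2 to Pcdh1, the most abundant of the 165. Impg2, a proteoglycan of the retinal matrix, had 72, 40 and 34 unscaled reads in sham libraries A to C and 11, 17 and 6 in ischemia libraries A to C. After scaling the groups did not overlap, with the nearest libraries 1.87-fold apart. Lama1, the alpha 1 chain of laminin in basement membranes, was at 185, 263 and 249 in sham and at 127, 137 and 58.6 in ischemia, where library C was the low one. Among the leucine-rich repeat membrane proteins, Islr2 went from 7354 to 4583 (adjusted p = 1.27e-04), Elfn2 from 8633 to 5785 and Lrrn2 from 8576 to 5929 normalised reads per the authors' deposited table. The ephrin gene Efna2 and the semaphorin gene Sema4b fell by 1.67-fold and 1.56-fold per the authors' deposited table.

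Signalling adaptors, caspase recruitment domain (CARD) proteins and channels gave 8 genes. Card14, a CARD scaffold upstream of NF-kappaB, was at 53.3, 74.1 and 50.3 normalised reads in sham libraries A to C and at 23.2, 4.56 and 4.78 in ischemia libraries A to C. Library A was again the high one in ischemia, with 28 reads against 4 and 4, and without it the log2 fold change of -2.45 per the authors' deposited table moved to -3.67. Card6, another CARD protein, was more even, at 211, 247 and 208 in sham and 119.5, 83.1 and 78.9 in ischemia. Amer3 had the smallest adjusted p-value of the 165 genes, 1.24e-08, with means of 2357 in sham and 1186 in ischemia per the authors' deposited table. Axin2, a feedback inhibitor and target of Wnt signalling, fell 1.48-fold (adjusted p = 0.0306) per the authors' deposited table. It was the 1 called gene on a list of 25 Wnt pathway genes, where 2.25% of the tested genes were called in either direction. Amer3 is not on that list. Sufu, an inhibitor of Hedgehog signalling, fell 1.56-fold and Orai2, a store-operated calcium channel subunit gene, 1.50-fold from 11244 normalised reads per the authors' deposited table.

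RNA and translation factors numbered 12 and fell by a median of 1.62-fold per the authors' deposited table. They include genes that modify or process ribosomal and transfer RNA: Dhx33 (1.73-fold), Ctu1 (1.72-fold), Mrm2 (1.65-fold), Urb2 (1.56-fold) and Trmt1l (1.47-fold) per the authors' deposited table. Zc3hav1l, a CCCH zinc finger gene, was at 329, 324 and 383 normalised reads in sham libraries A to C and at 169, 223 and 110.0 in ischemia libraries A to C. Sham was tight, within 1.18-fold, ischemia varied by 2.03-fold, and the groups do not overlap. The other 33 genes had a different or undescribed function, and Ccnjl, a cyclin-like gene, was the clearest of them. It was at 404, 433 and 453 normalised reads in sham and at 217, 91.1 and 166 in ischemia libraries A to C (adjusted p = 1.93e-08 per the authors' deposited table). Tm6sf2, a regulator of lipoprotein lipid loading, was at 138, 107 and 113 in sham and 66.4, 18.2 and 34.7 in ischemia, and its log2 fold change of -1.59 per the authors' deposited table moved to -2.18 without ischemia library A.

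**Figure D3:**
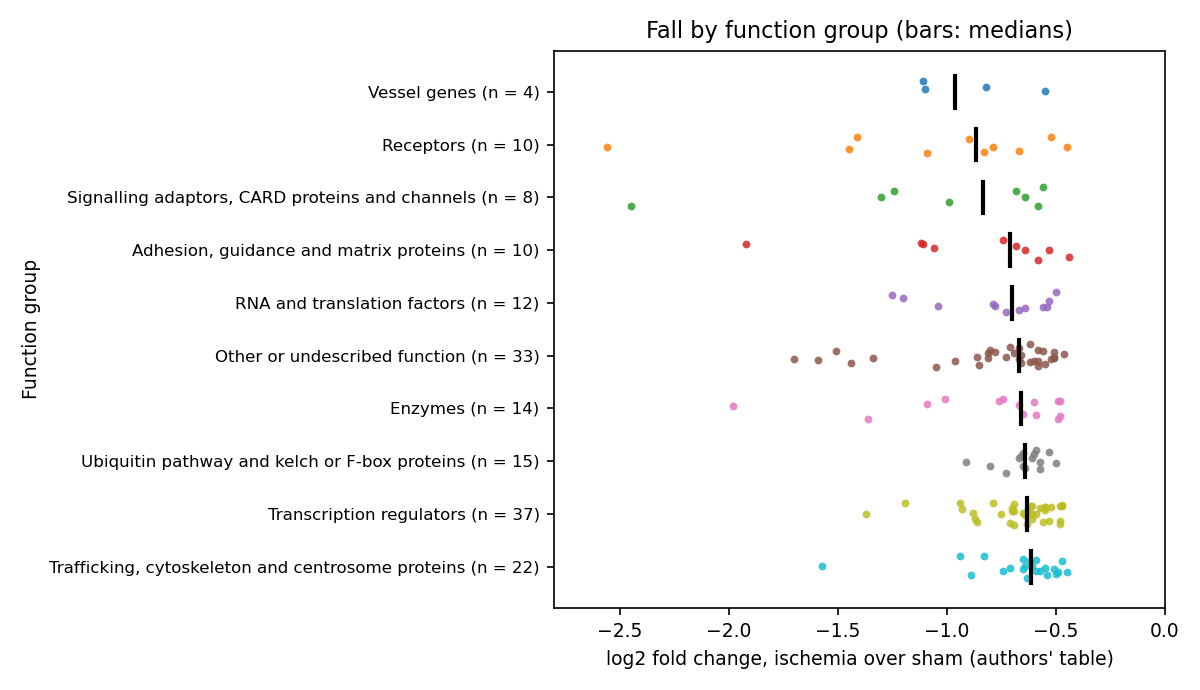
log2 fold change of ischemia over sham from the authors' table, 1 point per gene, by function group with the number of genes, and a black bar at the median. Group medians lie between -0.61 and -0.96, and no point lies at or above 0 because only lower genes were chosen.

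Lists of other pathways and of markers of other cell types were counted against the 2.25% of tested genes called in either direction. Of the 20 lists of pathways and cell type markers examined, with 364 genes, 10 had 0 genes called in either direction by the authors' test: pericytes, ependyma and choroid plexus, fibroblasts, astrocytes, pyramidal neurons, interneurons, microglia, the Notch pathway, chromatin corepressors and DNA repair. Of 11 dentate granule markers 2 were lower (Lct and Dsp), and of 10 oligodendrocyte precursor markers 1 was lower (Gpr17), with 0 higher in either list. Of 23 BMP and TGF-beta genes 2 were higher (Smad7 and Tgfb3), and of 28 growth factor and cytokine receptors 1 was lower (Il1r1) and 2 higher (Fgfr2 and Tnfrsf1b). That receptor list does not hold the lower genes Tnfrsf25, Il20rb and Il17rd, so its counts do not describe cytokine receptors as a class. At 2.25% a list of 10 to 28 genes would hold fewer than 1 called gene, so a count of 0 is near the background. Since uncalled genes are not listed, these counts give no level for the other markers, and the part of cell composition in the falls was not tested.

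Properties that the choice of genes did not use were taken from the GENCODE M21 annotation, in which 164 of the 165 genes were found. In the transcripts of the lower genes the median GC content was 53.7%, with quartiles of 48.8% and 57.0%, against 48.2% for the higher genes and 49.4% for all protein-coding genes. A GC content above 55% was found in 43.9% of them, 19.4% of the higher genes and 22.9% of all protein-coding genes. The 32 lower Zfp genes, which were set aside by name, lay on the other side, with a median of 45.2%. No family was set aside from the higher genes or from all protein-coding genes. The latter were taken whether or not they are expressed in hippocampus. The transcripts were also longer, with a median of 4096 bases against 3011 for the higher genes and 2545 for all protein-coding genes. Within the 165 genes the median fall was 1.59-fold in the lowest GC class of 55 genes and 1.56-fold in the highest class of 54. These are descriptions over genes, which are not replicates. The part of GC content or length in the libraries' read counts was not tested.

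**Figure D4:**
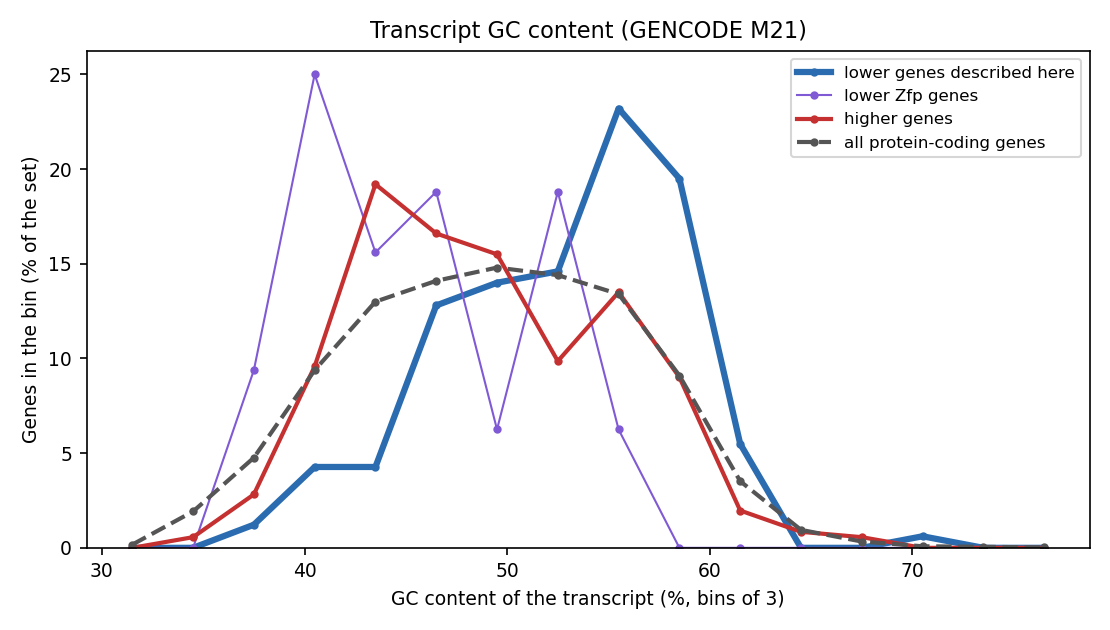
Share of genes (%) by GC content of the transcript in bins of 3 percentage points, for the lower genes described here, the lower Zfp genes, the higher genes and all protein-coding genes of GENCODE M21. The curve of the lower genes peaks to the right of the others, with a median of 53.7% against 49.4% for all protein-coding genes.

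Sequence features of stability and of the promoter were counted as well. The pentamer ATTTA, the core of AU-rich elements that shorten the life of many mRNAs, occurred 1.38 times per 1000 bases of 3′ untranslated region in the lower genes, 2.34 times in the higher genes and 1.93 times in all protein-coding genes. In the lower Zfp genes it occurred 2.00 times, so a low count is not shared by all lower genes. The sets differ in GC content, and its part in these counts was not tested. A coding sequence in 1 exon was found in 25 of the 164 genes (15.2%), close to the 16.3% of all protein-coding genes. Promoter sequence was found for 119 of the 165 genes. The cyclic AMP response element TGACGTCA, searched on both strands of the 250 bases before the start, was in 0 of the 119, in 7.47% of 281 promoters of higher genes, in 2.07% of those of protein-coding genes and in 1.62% of all 27025 promoters. It was in 1 of 26 promoters of lower Zfp genes (3.85%). At 2.07% only a few of 119 promoters would hold it, so the count of 0 is near the background. The GC box GGGCGG was in 67.2% of the 119, 65.1% of the higher genes, 44.3% of protein-coding genes and 32.9% of all promoters. The AP-1 site TGANTCA was in 5.04%, against 5.69% of the higher genes and 6.87% of all promoters. A match is a string of letters and not a bound site.

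Exons of 59 of the 164 genes (36.0%) overlap an exon of another gene in that annotation, against 29.9% of all protein-coding genes. Strand use in the authors' counting is not stated in the sources used here, so these values are uncertain. On the opposite strand the longest overlap was 839 bases for Card14, 329 for Ptgfr, 181 for Ston1, 122 for Prss8, 212 for Arsj, 726 for Zbtb5, 30 for Ccnjl, 55 for Amer3, 2758 for Gse1, 295 for Cbfa2t3, 909 for Kif26b and 1772 for Kbtbd11. It was 596 for Nlrx1, 614 for Chst15, 473 for Urb2, 241 for Doc2b, 245 for Zswim1, 240 for Gal3st3, 162 for C2cd3, 158 for Trmt1l, 121 for Elfn2, 105 for Axin2, 39 for Mrm2 and 14 for Rasl10a. On the same strand it was 321 bases for Pear1, 127 for Gpr75, 54 for Ep300 and 49 for Tbc1d14. Neurod1 overlapped by 201 bases on the same strand and 154 on the opposite strand, and Islr2 by 93 and 55. Of the genes described with library values, Il17rd, Il20rb, Sox18, Osr1, Lama1, Card6, Impg2, Tm6sf2 and Zc3hav1l had 0 bases of overlap. Within 50 kb, 5 pairs of the lower genes were neighbours: Fbxo10 with Zbtb5, Igdcc3 with Parp16, Oprl1 with Sox18, Zswim1 with Zswim3, and 2 genes without descriptive names. Another 5 lay that close to a higher gene, among them Chst15 beside Fgfr2.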

How the data were processed

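RNA-seq of 3 ischemia and 3 sham hippocampus samples was available as 1 table of genes called by the authors. Bowtie 0.12.2 and mm8 are named, without their roles, per the submitters' processing notes. In 612 of the 637 rows the gene identifier starts with a BALB/cJ prefix. The read signal deposited by the authors is a mean normalised read count per group, and depth is unknown beyond relative size factors. The log2 fold change deposited by the authors equals the log2 ratio of these means to within 4.97e-05. The p-value and adjusted p-value are the authors' own; the sources used here do not state how reads were counted, normalised or tested. No value per sample is in the table, so no gene was tested again.

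The number of genes tested, 28319, was the value at which Benjamini-Hochberg adjustment matched 636 of the 637 rows within the printed digits. Whole reads per library were separated from means of at most 450: integer relations among the 12 lowest means of each group left 3 steps, and the size factors lay between 0.837 and 1.20. A single solution was found for 135 of 172 ischemia means and 189 of 195 sham means, and the rest had several. On simulated data (4 tables of 637 genes each) 577 of 577 single solutions were correct. Transcripts with the longest coding sequence were taken from GENCODE M21, matched by symbol for 159 genes and by older symbol for 5, and the first promoter entry per symbol from RefSeq GRCm38.p6. Their coordinates are of another build than the authors' annotation. Python 3.11.15, numpy 2.4.6, pandas 2.3.3, sympy 1.14.0 and matplotlib 3.10.9 were used.

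The genes, 20 lists and 10 function groups were chosen with earlier results of these data known; the function groups were assigned by hand from the gene descriptions. Genes were named if among the 12 with the largest fall, smallest adjusted p or highest sham mean, among 8 per function group with the smallest adjusted p, or on a list. Outside that rule, Igdcc3, Parp16, Senp8, Zswim1, Zswim3, Zbtb5, Smarcd2, Neurod1, Foxn2, Cep350, Cep97, C2cd3, Ep300, Trmt1l, Rtn4r, Hexim1, Tbc1d14 and Ptprj were named after their values were seen. Alternatives were an adjusted p of 0.01, a log2 fold change of 1, means of at least 50, pseudocounts of 1 and 10, omission of genes with overlapping exons and omission of single libraries. The result of 1 of the lists and of 1 of the genes is not reported here.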

Additional observations from a re-analysis of the deposited data

How the results depend on the processing

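The values are the authors' calls, so stricter settings could only remove genes. Of the 165 lower genes, 77 remained at an adjusted p of 0.01 and 29 at a log2 fold change of -1 or less. Without genes whose exons are known to overlap another gene, 106 remained. These 106 include 1 gene that was not found in the annotation, so its overlap is unknown. A sham mean of at least 50 was found for 162. The lower share of listed genes was 34.9%, moved to 17.7% at an absolute log2 fold change of 1, and was 36.4% with both means of at least 50. At an adjusted p of 0.01 the groups kept 3 of 12 RNA and translation factors, 4 of 10 adhesion genes, 5 of 14 enzymes, 17 of 33 other genes, 5 of 8 signalling genes, 7 of 22 trafficking genes, 19 of 37 transcription regulators, 8 of 15 ubiquitin pathway genes, 2 of 4 vessel genes and 7 of 10 receptors. The median log2 fold change stayed between -0.65 and -0.64 with pseudocounts of 1 and 10. Values of the scarcest genes shrank with a pseudocount of 10, from -2.56 to -1.45 for Ptgfr and from -2.45 to -1.73 for Card14. The size of their falls thus depends on this setting. Leaving out each library in turn could not turn the direction of the 33 separated genes, since their groups do not overlap, but it moved 5 of them by more than 1.5-fold: Ptgfr, Card14, Prss8, Il20rb and Tm6sf2. No paired analysis was possible because the columns are group means that carry no replicate numbers. Genes with sham means above 450 have no sham spread here. For 10 genes reads were separated in ischemia alone, and their libraries are not described.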
